A study of Rattus norvegicus with 21 samples.

Results

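Mx1, Mx2, Ifit3, Isg15, Rsad2 and Cxcl10 are 6 of the 32883 rat genes counted in this study, and each is a gene that cells switch on in response to interferon. They were taken by their Ensembl gene IDs, which are ENSRNOG00000001959 for Mx1, ENSRNOG00000001963 for Mx2, ENSRNOG00000022839 for Ifit3, ENSRNOG00000021802 for Isg15, ENSRNOG00000007539 for Rsad2 and ENSRNOG00000022256 for Cxcl10. The 6 were selected on values measured in these same libraries, with earlier results known; which values is not recorded with the list, so every difference between neomycin and another treatment is counted as used in the choice. Those differences are a description. Test calls on them are listed, but nothing is read from those calls. Vancomycin against PBS and microglia against cord were tested.

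The libraries came from wild type LEW/Crl rats of 6 to 8 weeks that had received PBS, the antibiotic neomycin (NEO) or the antibiotic vancomycin (VANCO) into the trachea for 7 days. Microglia, the resident macrophages of the central nervous system, were sorted from the spinal cord as CD45low CD11b+ cells (PBS, n = 4; NEO, n = 4; VANCO, n = 4). The other libraries were made from total spinal cord freed of myelin on a Percoll gradient (n = 3 for each treatment). All groups share strain, genotype and the intratracheal route, and PBS is the vehicle arm. The sources used here do not say whether a library is 1 animal or a pool, so the spread between libraries may be partly technical.

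Type I interferons bind a receptor on almost every cell type, and many of the genes they switch on carry a DNA element called the interferon-stimulated response element (ISRE) near their start. In the central nervous system microglia are a main responder, and a low constant interferon tone keeps such genes measurable without infection. The 6 genes act at different points. Mx1 and Mx2 encode dynamin-like GTPases that trap viral components, Ifit3 belongs to the tetratricopeptide family that binds foreign RNA together with its relatives, and Rsad2 encodes viperin, a radical SAM enzyme that makes a chain-terminating nucleotide. Isg15 encodes a ubiquitin-like protein that is joined to other proteins or released, and Cxcl10 encodes a secreted chemokine that attracts CXCR3-bearing T cells.

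The start-site regions are shown for the 4 of the 6 genes that the promoter set used here held, Mx1, Ifit3, Rsad2 and Cxcl10. It had no entry for Mx2 or Isg15. The sequences are those of RefSeq for the rat build GRCr8 and hold 250 bases before and 50 bases from the annotated start, written 5′ to 3′ on the gene's strand. They lie at chr11:50294557-50294856 on the minus strand for Mx1, chr1:241527076-241527375 on the plus strand for Ifit3, chr6:48788071-48788370 on the minus strand for Rsad2 and chr14:15988816-15989115 on the plus strand for Cxcl10. The counts themselves were made on rn6, so these positions belong to the sequences and not to the counts. Capitals mark each match to the ISRE core, searched as GAAA, then 2 bases of any kind, then GAAA, or on the other strand as TTTC, 2 bases and TTTC.
Mx1: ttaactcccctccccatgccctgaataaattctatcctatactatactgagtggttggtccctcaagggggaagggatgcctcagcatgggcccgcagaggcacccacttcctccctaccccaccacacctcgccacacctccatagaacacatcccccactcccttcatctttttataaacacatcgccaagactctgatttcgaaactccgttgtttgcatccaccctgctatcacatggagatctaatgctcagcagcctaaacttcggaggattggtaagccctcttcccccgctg
Ifit3: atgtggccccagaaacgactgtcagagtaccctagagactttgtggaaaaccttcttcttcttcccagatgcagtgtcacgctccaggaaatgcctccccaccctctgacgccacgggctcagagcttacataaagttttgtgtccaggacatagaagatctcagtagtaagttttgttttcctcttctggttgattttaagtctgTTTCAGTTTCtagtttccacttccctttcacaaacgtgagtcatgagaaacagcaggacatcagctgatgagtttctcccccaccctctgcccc
Rsad2: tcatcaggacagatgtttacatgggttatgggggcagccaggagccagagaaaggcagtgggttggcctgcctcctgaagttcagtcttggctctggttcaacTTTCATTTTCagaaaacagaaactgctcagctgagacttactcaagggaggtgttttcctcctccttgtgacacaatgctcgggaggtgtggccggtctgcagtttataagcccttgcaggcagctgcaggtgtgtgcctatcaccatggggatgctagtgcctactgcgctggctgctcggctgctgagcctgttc
Cxcl10: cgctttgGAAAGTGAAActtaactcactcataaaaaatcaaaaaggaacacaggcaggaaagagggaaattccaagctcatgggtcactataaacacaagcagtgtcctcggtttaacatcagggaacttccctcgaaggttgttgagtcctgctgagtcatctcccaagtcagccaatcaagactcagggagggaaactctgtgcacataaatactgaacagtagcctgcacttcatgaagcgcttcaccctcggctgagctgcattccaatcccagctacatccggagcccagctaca

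The ISRE core was present in 3 of the 4 sequences, and 3.92% of the 33469 promoters of the same length in the table held it on either strand. Its first base lay at position -44 from the annotated start in Ifit3, at -147 in Rsad2 and at -243 in Cxcl10, while these letters were not in the Mx1 window. A match of letters is a description of the sequence and not a measurement of binding.

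The microglia libraries held 9020480 to 22435887 counts in total and the cord libraries 16769410 to 25114844. Of these, a member had 16 to 2040 counts in a microglia library and 12 to 879 in a cord library. All 6 passed the filter on low counts in both tissues. Levels are given as CPM, a gene's count scaled by the total count of its library in the usual way. Because the files do not pair IDs with names, cell types were checked only through genes that separated the tissues in PBS animals. The 1646 genes at least 64-fold higher in cord made up 28.7 to 33.2% of counts in cord, 0.037 to 0.306% in 11 of the 12 microglia libraries, and 2.57% in NEO replicate 2 of the microglia. In the PBS libraries this difference follows from how the genes were chosen. The share covers cord material only, and other cell types among the sorted cells were not checked. Fold changes come from an unpaired edgeR model of the libraries of each tissue and from a paired model that adds the replicate number, since libraries of different treatments with the same number deviated together.

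In microglia the neomycin libraries of Mx1 and Mx2 did not overlap those of PBS or vancomycin. Mx1 was at 55.2, 41.5, 42.6 and 45.5 CPM in PBS replicates 1, 2, 3 and 5, at 106, 122, 81.8 and 95 CPM in NEO and at 58.3, 59.9, 38.4 and 38.8 CPM in VANCO. The lowest neomycin library was 1.37 times the highest library of the other treatments, and the PBS and VANCO libraries overlapped. Mean Mx1 was 101 ± 17.1 CPM after neomycin, 46.2 ± 6.24 CPM after PBS and 48.8 ± 11.9 CPM after vancomycin (SD, n = 4). The log2 fold change of NEO against PBS was 1.15 (SE 0.19) unpaired and 1.12 (SE 0.11) paired, and the same-number ratios ran from 1.92 to 2.95.

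Mx2 was at 23.5, 18.1, 13.5 and 15.2 CPM in PBS replicates 1, 2, 3 and 5 of the microglia, at 43.5, 50.1, 34.3 and 41.4 CPM in NEO and at 22.2, 18.5, 12.9 and 15.0 CPM in VANCO. No neomycin library overlapped either other treatment, and within every treatment replicate 3 was the lowest of the 4. The log2 fold change of Mx2 against PBS was 1.28 (SE 0.22) unpaired and 1.30 (SE 0.10) paired. NEO replicate 2, the library with the raised share of cord genes, held the highest value of both Mx genes, and without it the unpaired log2 fold changes were 1.02 for Mx1 and 1.17 for Mx2. Both genes were at or below 35.0 CPM in every cord library. Mx1 and Mx2 are close relatives and lie near each other on the same chromosome, and the sources do not say how the authors counted reads that align to both, so the split between them is uncertain.

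Rsad2 kept neomycin apart from the other treatments as the Mx genes did. In microglia it was at 6.34, 4.10, 6.23 and 3.61 CPM in PBS replicates 1, 2, 3 and 5, at 13.9, 16.6, 25.8 and 15.1 CPM in NEO and at 7.32, 7.05, 8.74 and 3.67 CPM in VANCO. Neomycin libraries all lay above both other treatments, by at least 1.59 times. The fitted log2 difference from PBS was 1.83 (SE 0.30) unpaired and 1.83 (SE 0.18) paired.

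Ifit3 had a mean ratio of NEO to PBS of 4.08 in microglia and a wide spread. It was at 2.86, 1.77, 9.84 and 4.41 CPM in PBS replicates 1, 2, 3 and 5, at 8.71, 17.1, 43.0 and 8.24 CPM in NEO and at 5.46, 8.49, 12.3 and 3.88 CPM in VANCO. Replicate 3 was the highest library in all 3 treatments, and PBS replicate 3 lay above NEO replicates 1 and 5, so the groups overlapped although each neomycin library exceeded the PBS library of its own number, by 1.87 to 9.67 times. On the log2 scale the difference was 2.04 (SE 0.64) unpaired and 1.84 (SE 0.31) paired. Leaving out NEO replicate 3 lowered the unpaired value to 1.28, and leaving out PBS replicate 3 raised it to 2.67.

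Isg15 shared its highest library with Ifit3. Its microglial values were 3.48, 3.88, 4.86 and 2.63 CPM in PBS replicates 1, 2, 3 and 5, 5.18, 6.08, 15.0 and 5.34 CPM in NEO and 4.13, 4.57, 5.21 and 2.65 CPM in VANCO. Replicate 3 was again the highest in each treatment, and the neomycin value of that number was 2.72 times the mean of the other neomycin libraries. NEO and PBS did not overlap, while the lowest NEO library fell just under the highest VANCO library. Against PBS the log2 fold change was 1.1 (SE 0.37) unpaired and 1.03 (SE 0.21) paired, and unpaired it was 0.58 without NEO replicate 3.

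Cxcl10 did not share this pattern in microglia. It was at 92.2, 13.4, 12.6 and 13.1 CPM in PBS replicates 1, 2, 3 and 5, at 75.9, 38.3, 21.4 and 20.4 CPM in NEO and at 88.0, 28.2, 12.4 and 14.7 CPM in VANCO. Replicate 1 was the highest library in every treatment, at 7.06 times the mean of the other libraries in PBS, 2.84 times in NEO and 4.78 times in VANCO. In number 1 the neomycin library was 0.823 times the PBS library, and in the other numbers it was above it, by up to 2.86 times. For Cxcl10 the log2 fold change against PBS was 0.28 (SE 0.86) unpaired and 0.61 (SE 0.22) paired. Leaving out NEO replicate 1 made the unpaired value -0.28, and leaving out PBS replicate 1 made it 1.60.

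**Figure D1:**
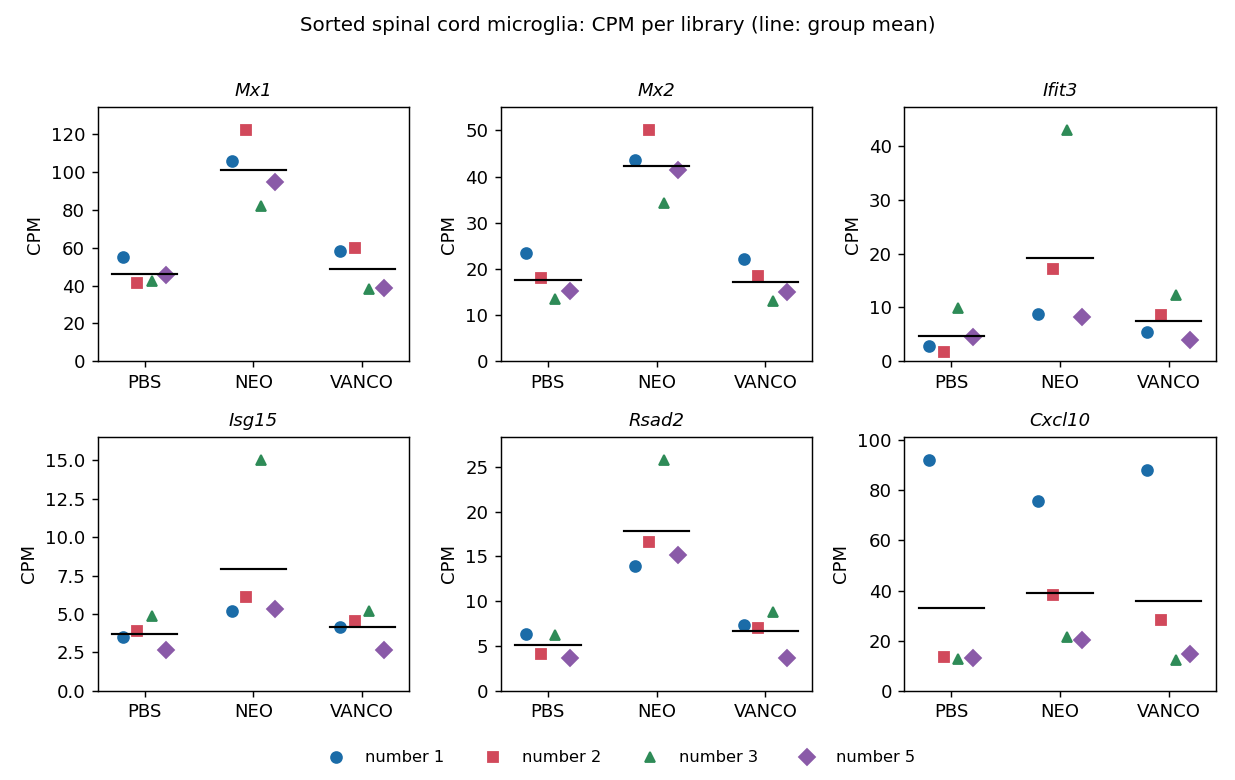
CPM of each gene in the 12 microglia libraries by treatment, with the replicate number as symbol and colour and the group mean as a line. Mx1, Mx2 and Rsad2 in NEO lie above all PBS and VANCO libraries, number 3 is highest for Ifit3 and Isg15 in each treatment, and number 1 is highest for Cxcl10 in each treatment.

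Counted over the set, 4 of the 6 genes (Mx1, Mx2, Isg15 and Rsad2) had every neomycin library above every PBS library in microglia, where 1.75% of the 12570 genes tested did. Against VANCO 3 of the 6 (Mx1, Mx2 and Rsad2) did, with 0.660% of all genes. The unpaired model called 0 of the 6 at an adjusted p under 0.05 against PBS, where it called 0.0318% of all genes higher. In unpaired edgeR 5 of the 6 had an unadjusted p under 0.05, as did 655 of the 12570 genes. DESeq2 called 3 of the 6, with 52 of all genes higher. The paired model called 4 (Mx1, Mx2, Ifit3 and Rsad2) higher, where it called 0.533% of genes. The median log2 fold change of the 6 was 1.22 unpaired, and that of all genes was 0.00. Since the neomycin values took part in the choice of the genes, nothing is read from these counts. Leaving out all libraries of number 3 brought the paired count to 0 of the 6 and to 0 of all 12559 genes tested. The log2 fold changes were then 1.17 for Mx1, 1.27 for Mx2 and 1.74 for Rsad2. Over all fits with 1 number left out, the paired values ran from 1.61 to 2.22 for Ifit3, 0.76 to 1.17 for Isg15 and 0.34 to 0.94 for Cxcl10. Leaving out number 2 brought the paired count to 5 of the 6, with 115 of 12633 genes called higher.

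In total cord the neomycin libraries lay above all PBS libraries for 4 of the 6 genes, and overlapped them for Rsad2 and Cxcl10. Mx1 was at 3.64, 2.74 and 3.10 CPM in PBS replicates 1, 2 and 3, at 8.23, 6.57 and 5.57 CPM in NEO and at 4.12, 3.04 and 2.43 CPM in VANCO. Its lowest neomycin library was 1.35 times the highest of the rest. Mx1 had a log2 fold change against PBS of 1.11 (SE 0.19) unpaired, next to 1.15 in microglia.

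Mx2 showed the tightest groups of the set in cord. It was at 23.4, 20.8 and 24.0 CPM in PBS, at 33.9, 33.2 and 35.0 CPM in NEO and at 21.3, 21.5 and 19.6 CPM in VANCO (replicates 1, 2 and 3). The highest value of each treatment was at most 1.15 times its lowest. Neomycin lay wholly above the others, and the log2 fold change against PBS was 0.60 (SE 0.09).

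Among the RNA-directed effectors Ifit3 moved the most in cord. Ifit3 was at 2.41, 1.75 and 1.19 CPM in PBS replicates 1, 2 and 3, at 5.68, 9.05 and 5.42 CPM in NEO and at 2.0, 2.89 and 1.36 CPM in VANCO, with the neomycin libraries at least 1.87 times any other. The fitted log2 difference of Ifit3 from PBS was 1.92 (SE 0.31). Rsad2 overlapped: PBS had 7.34, 3.99 and 3.58 CPM, NEO had 10.3, 8.57 and 6.21 CPM and VANCO had 4.90, 5.58 and 3.67 CPM. PBS replicate 1 lay above NEO replicate 3, and within each number NEO exceeded PBS, by 1.40 to 2.15 times. Rsad2 had a log2 fold change of 0.75 (SE 0.25) unpaired and 0.77 (SE 0.14) paired.

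Isg15 in cord was at 5.27, 4.38 and 3.88 CPM in PBS replicates 1, 2 and 3, at 7.07, 7.52 and 7.96 CPM in NEO and at 4.90, 4.03 and 4.52 CPM in VANCO. All neomycin libraries were above the rest, and the log2 fold change against PBS was 0.76 (SE 0.14). Cxcl10 had few counts in cord, 12 to 51 per library. Its values were 1.35, 1.04 and 0.775 CPM in PBS, 2.71, 1.63 and 1.11 CPM in NEO and 0.668, 0.697 and 0.678 CPM in VANCO. NEO overlapped PBS through replicate 3 but lay above every VANCO library, and the vancomycin libraries all lay below those of PBS. Its log2 fold change was 0.76 (SE 0.32) against PBS and 1.38 (SE 0.34) against VANCO.

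**Figure D2:**
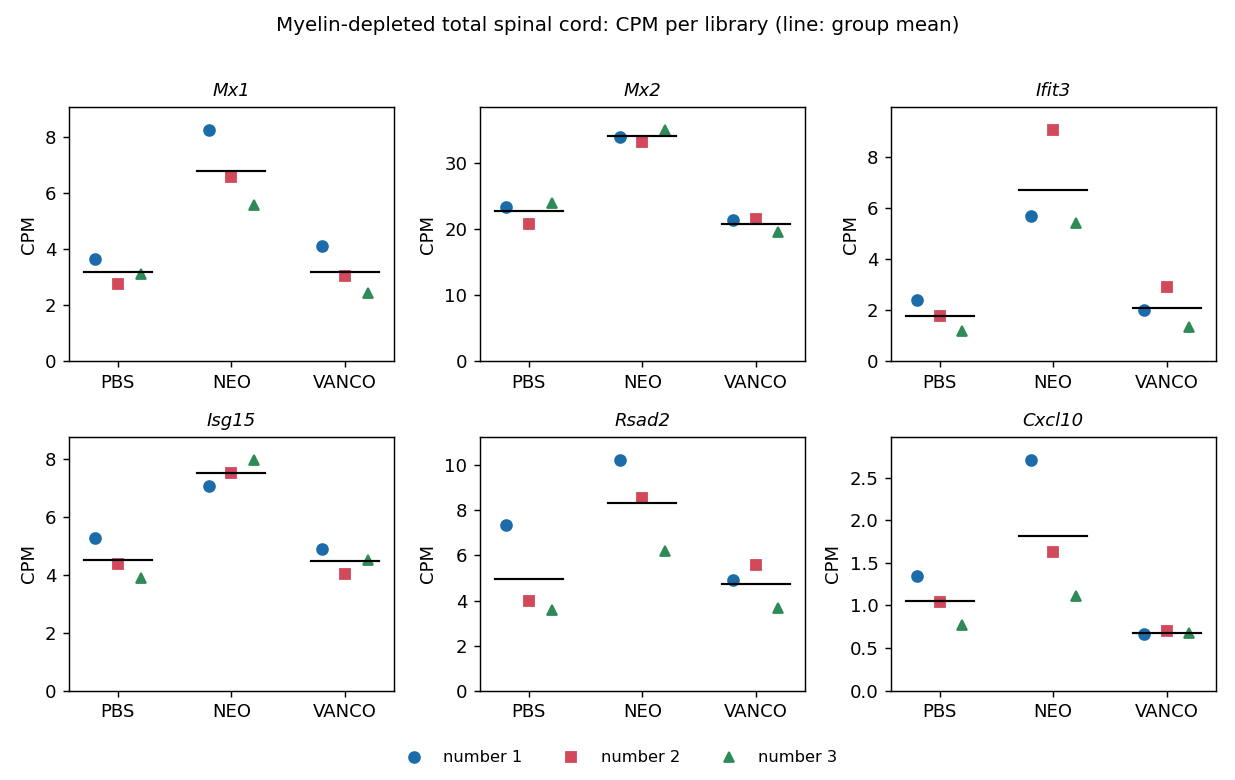
CPM of each gene in the 9 total cord libraries by treatment, with the replicate number as symbol and colour and the group mean as a line. All 6 genes in NEO lie above every VANCO library, and Rsad2 and Cxcl10 in NEO overlap PBS.

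In the cord all 6 members were higher in NEO than in PBS within each of the 3 numbers. In the microglia 5 of the 6 were higher within each of the 4 numbers. The exception was Cxcl10, in number 1. Genes measured in the same library are not replicates of each other, and the share of all genes higher in every pair was not counted. Groups that did not overlap were seen for 4 of the 6 genes against PBS in cord (Mx1, Mx2, Ifit3 and Isg15), with 2.53% of the 14677 genes tested, and for 6 of the 6 against VANCO, with 3.36%. The unpaired model called 0 of the 6 against PBS and 0% of all genes higher. In unpaired edgeR all 6 had an unadjusted p under 0.05, as did 400 of the 14677 genes. DESeq2 called 4 of the 6, with 26 of all genes higher. The paired model called 5 of the 6 (all but Cxcl10), with 0.518% of genes. This count was 3 without PBS replicate 3 (47 of 14812 genes higher) or without all libraries of number 3 (46 of 14750). Against VANCO the paired model called 3 of the 6 in microglia (Mx1, Mx2 and Rsad2, with 0.159% of genes) and 6 of the 6 in cord (0.388%). The unpaired model called 0 and 0, with 0% of all genes higher. DESeq2 called 3 and 4, with 15 of 12570 and 24 of 14677 genes higher. In unpaired edgeR 4 and 6 had an unadjusted p under 0.05, with 269 and 331 of all genes. The paired count of 3 in microglia became 1 without VANCO replicate 1, without VANCO replicate 3 or without number 5, and 0 without number 3. Of all genes, 1, 1, 2 and 0 were then called higher, in that order. The paired count of 6 in cord became 4 without VANCO replicate 1, without number 1 or without number 3, with 36, 41 and 44 of all genes higher. These comparisons share the neomycin libraries with those against PBS, and as in microglia nothing is read from any of these counts, since the neomycin values took part in the choice of the genes.

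In a bulk sample fewer cells of a type and less RNA per cell cannot be told apart, and cord levels also depend on how many microglia the pellet held. The 1323 other genes at least 8-fold higher in microglia made up 1.37 to 1.52% of cord counts in NEO, 1.37 to 1.45% in PBS and 1.34 to 1.44% in VANCO. By number, this share was 1.52% in NEO and 1.45% in PBS for number 1, 1.51% and 1.41% for number 2, and 1.37% and 1.37% for number 3. Its part in the cord values was not tested. The mean NEO to PBS ratio of the 6 genes in cord ran from 1.5 (Mx2) to 3.76 (Ifit3).

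Vancomycin was compared with PBS to see whether the genes moved with this antibiotic too. In microglia 0 of the 6 passed the edgeR test in either model, where 0% of genes did. In edgeR 0 of the 6 had an unadjusted p under 0.05, where 108 of 12570 genes did unpaired and 365 paired. DESeq2 called 0 of the 6 unpaired and 0 paired, where it called 5 and 38 of all genes. Paired DESeq2 gave 1 of the 6 (Ifit3, 0.72 on the log2 scale) an unadjusted p under 0.05, with 371 of all genes. The unpaired log2 fold changes were 0.09 for Mx1 (95% interval -0.33 to 0.51), -0.03 for Mx2 (-0.51 to 0.44), 0.16 for Isg15 (-0.65 to 0.97) and 0.41 for Rsad2 (-0.24 to 1.06). Ifit3 had 0.68 (-0.75 to 2.10) and Cxcl10 0.14 (-1.77 to 2.04). In the paired model the intervals were -0.20 to 0.30 for Mx1, -0.26 to 0.19 for Mx2 and -0.03 to 0.80 for Rsad2. They were -0.05 to 1.37 for Ifit3, -0.33 to 0.65 for Isg15 and -0.26 to 0.71 for Cxcl10. With 1 number left out, paired edgeR gave 0 to 2 of the 6 an unadjusted p under 0.05, with 210 to 922 of all genes. Isg15 and Rsad2 were above PBS in 4 of 4 numbers, with ratios of 1.01 to 1.18 and 1.02 to 1.72, and Mx2 was below PBS in 3 of 4. The share of all genes above PBS in every number was not counted, so nothing is read from these counts.

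In cord vancomycin again gave 0 of 6 calls in edgeR in either model, where the paired edgeR model called 0.00681% of all genes. In edgeR 0 of the 6 had an unadjusted p under 0.05, where 124 of 14677 genes did unpaired and 433 paired. DESeq2 called 0 of the 6 and 0 of all genes, unpaired and paired. The unpaired log2 fold changes were 0.02 (95% interval -0.42 to 0.46) for Mx1, -0.12 (-0.32 to 0.08) for Mx2, 0.24 (-0.51 to 0.98) for Ifit3, -0.00 (-0.32 to 0.32) for Isg15 and -0.06 (-0.64 to 0.51) for Rsad2. Cxcl10 was the one gene whose groups did not overlap, with all VANCO libraries below all PBS libraries, as in 2.47% of genes tested. Its log2 fold change was -0.62 (-1.41 to 0.17, edgeR adjusted p = 1.00), it was lower in 3 of 3 numbers, and it rests on 12, 14 and 12 counts in the vancomycin libraries. The share of all genes lower in every number was not counted. All these comparisons use the PBS libraries that also serve the neomycin comparisons.

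**Figure D3:**
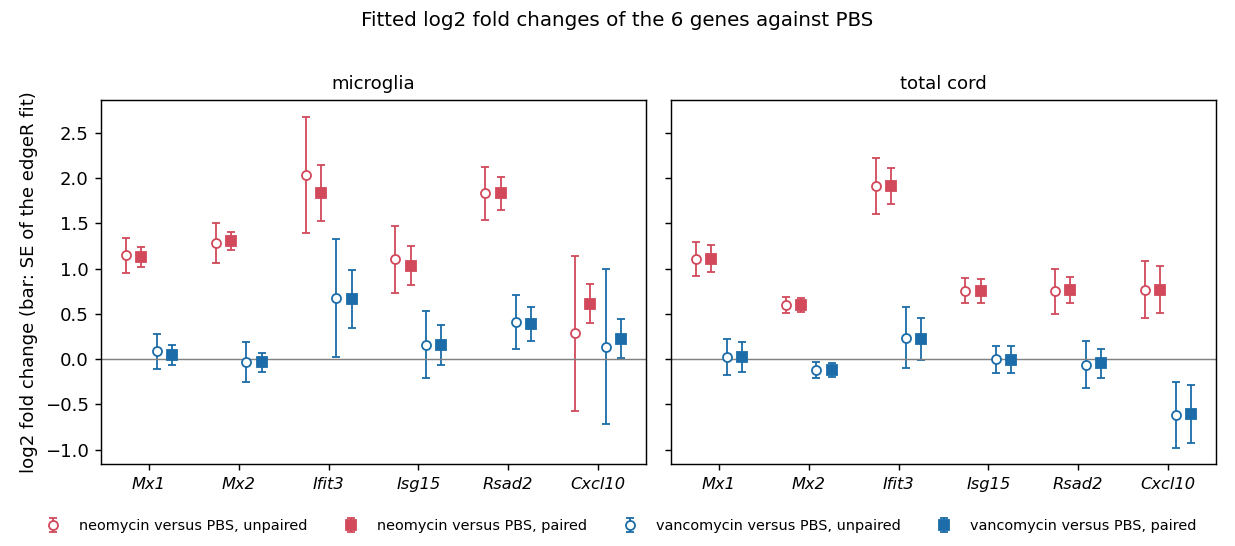
Log2 fold change of each gene against PBS in microglia and in total cord for neomycin and vancomycin, from the unpaired (open) and paired (filled) edgeR models; bars are standard errors. Neomycin values lie from 0.28 to 2.04 and vancomycin values from -0.62 to 0.68 in the unpaired models.

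The libraries also differed by replicate number, whose meaning the labels do not give. The sum of squares of log2(CPM + 0.5) over the 12 microglia libraries was divided into treatment, number and the rest. Treatment made up 82.9% for Mx1, 84.2% for Mx2 and 80.1% for Rsad2, and 47.6% for Ifit3 and 45.8% for Isg15. For Cxcl10 treatment made up 6.02% and number 86.9%. The median over all genes tested was 9.88% for treatment and 56.4% for number. In cord, treatment made up from 54.7% (Rsad2) to 95.9% (Mx2) in the 6 genes, with a median of 12% over all genes, and number made up 20% for Cxcl10. These treatment shares include the neomycin values by which the genes stood out and carry no test.

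The numbers did not rank the 6 genes alike. Ifit3 and Isg15 were highest in number 3 and Cxcl10 in number 1 in all 3 treatments of the microglia, while Mx2 was lowest in number 3. In cord, where the labels do not say whether the numbers mark the same animals, Ifit3 was lowest in number 3 in every treatment, and Mx1 was highest in number 1 in every treatment.

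**Figure D4:**
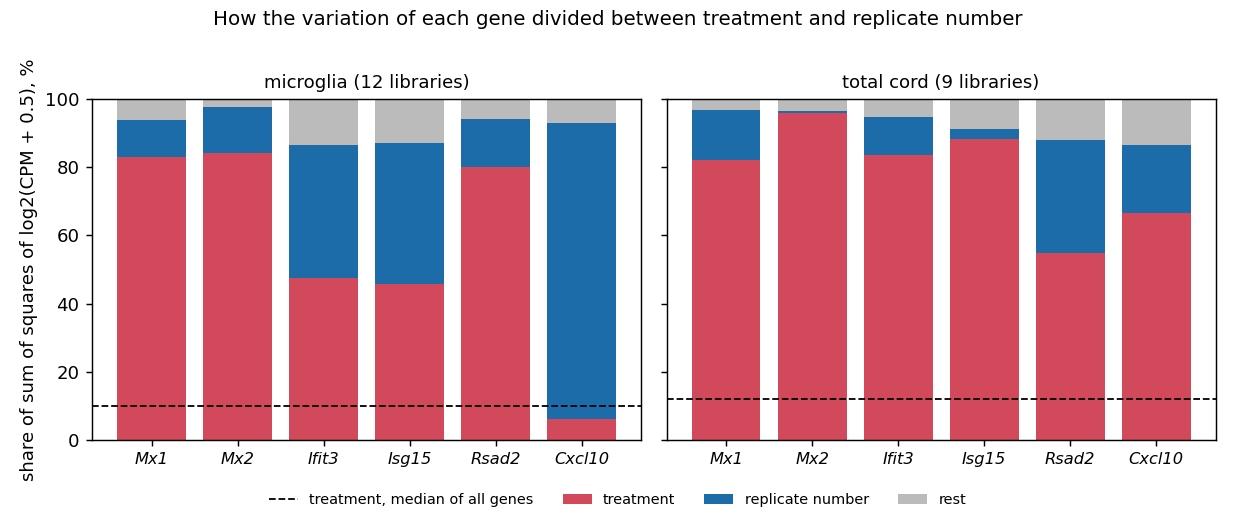
Share of the sum of squares of log2(CPM + 0.5) that went with treatment, with replicate number and with neither, for each gene in microglia and in cord; the dashed line is the median treatment share of all genes tested. Cxcl10 in microglia is the one bar whose treatment share, 6.02%, lies under that line.

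Microglia were compared with total cord in PBS animals to see where the genes are expressed without antibiotic. Mx1 and Cxcl10 were far higher in microglia: Mx1 had 46.2 ± 6.24 CPM (SD, n = 4) against 3.16 ± 0.456 CPM (n = 3), which is 3.74 on the log2 scale (SE 0.21, edgeR adjusted p 5.8e-11). Cxcl10 had 32.9 ± 39.6 CPM (n = 4) against 1.05 ± 0.285 CPM (n = 3), which is 4.81 on the log2 scale (SE 0.91, edgeR adjusted p 0.000214). The Cxcl10 difference was 3.51 without PBS replicate 1 of the microglia. Mx2, by contrast, was lower in microglia, at 17.6 ± 4.39 CPM against 22.7 ± 1.69 CPM in cord, which is -0.50 on the log2 scale (SE 0.18, edgeR adjusted p 0.0176). That call was lost without any 1 of PBS replicates 3 and 5 of the microglia and PBS replicate 3 of the cord, with adjusted p of 0.0616, 0.0546 and 0.0633. Ifit3 had 4.72 ± 3.58 CPM in microglia and 1.78 ± 0.609 CPM in cord (log2 fold change 1.30, SE 0.64, edgeR adjusted p 0.0698). The paired model gave 1.39 with an edgeR adjusted p of 0.0426, but its block joins numbers across tissues that the labels do not tie, and this call was lost with RLE factors (paired 0.90, edgeR adjusted p 0.171) and in paired DESeq2 (0.82, adjusted p 0.164), and the paired edgeR value was 0.35 without number 3. Isg15 and Rsad2 did not pass, at -0.40 (95% interval -1.13 to 0.32) and -0.09 (-0.77 to 0.59).

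In this comparison 45.0% of all genes were called higher and 39.1% lower, so a call in either direction was common, and 2 of the 6 were called higher and 1 lower. The paired model called 3 higher and 1 lower, with 45.9% and 40.0% of all genes. The scaling matters here: over all genes tested the median was 0.21 with TMM factors and -0.29 with RLE factors, a shift of -0.50. Relative to the median of all genes the value of Mx1 was 3.53 under both scalings, that of Cxcl10 4.59 and 4.61, that of Mx2 -0.71 and -0.71, and that of Isg15 -0.61 and -0.62. With RLE factors Isg15 also passed the test as lower in microglia (log2 fold change -0.91, edgeR adjusted p 0.0194).

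Whether an antibiotic moved a gene more in microglia than in cord was read from a model of all 21 libraries. For neomycin, as a description, the difference in log2 fold change was 0.65 (SE 0.26) for Mx2 and 1.04 (SE 0.45) for Rsad2 unpaired, and 0.67 (SE 0.14) and 1.03 (SE 0.28) paired, larger in microglia. For Mx1 it was 0.00 (95% interval -0.59 to 0.60) and -0.02 (-0.44 to 0.40). The edgeR models called 0 of the 6 in either form, and of all genes 0% unpaired and 0.193% paired. Both forms gave 2 of the 6 (Mx2 and Rsad2) an unadjusted p under 0.05, with 438 and 1411 of 15546 genes. DESeq2 called 0 unpaired, with 0 of all genes, and those 2 paired, with 172 of all genes. Since the neomycin values took part in the choice of the genes, nothing is read from these calls. For vancomycin 0 of the 6 passed in edgeR or DESeq2 in either form. Of all genes edgeR called 0% unpaired and 0.116% paired, and DESeq2 called 1 and 68 genes. In edgeR 0 of the 6 had an unadjusted p under 0.05, where 234 and 636 of 15546 genes did. The unpaired differences ran from 0.05 (Mx1) to 0.74 (Cxcl10, 95% interval -2.08 to 3.56).

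Genes of other IDs were ranked by how closely their level over the 21 libraries, standardised within each tissue, followed the mean of the 6. ENSRNOG00000057092 was the closest of the 11862 genes tested in both tissues, with a mean absolute difference of 0.343 SD, where the median gene had 1.01 SD and the members themselves 0.277 (Rsad2) to 0.570 (Cxcl10). It had 304 to 546 CPM in NEO microglia, 85.3 to 235 CPM in PBS and 125 to 236 CPM in VANCO, and 4.98 to 9.30 CPM in NEO cord, 2.35 to 5.38 CPM in PBS and 2.15 to 3.49 CPM in VANCO. ENSRNOG00000037198 followed at 0.352 SD, with 16.4 to 21.7 CPM in NEO microglia against 4.88 to 14.9 CPM in PBS and 6.73 to 14.4 CPM in VANCO. In microglia the neomycin range of both genes lay above those of the other treatments. Of the 12570 genes tested, 1.75% did so against PBS and 0.660% against VANCO. Both genes were picked for following the members' mean, which includes the neomycin values. Their separation is thus largely set by the choice, and nothing is read from it. The files do not pair these IDs with names.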

How the data were processed

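Gene counts of 12 microglia and 9 total cord libraries were used as deposited: the authors' files hold raw counts for 32883 rat Ensembl IDs. The tools named in the submitters' processing notes are STAR 2.5.2a and featureCounts 1.5.0-p1, on rn6; no source used here gives the annotation release, strand or multi-mapping settings. The IDs were not paired with names (0 matched the table used), so other interferon genes and cell type markers, though listed, were not analysed here.

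Groups and replicate numbers came from sample titles. Genes were filtered with filterByExpr, scaled by TMM and tested with robust quasi-likelihood F tests in edgeR 4.0.16 (R 4.3.3), Benjamini-Hochberg adjusted over all genes tested, threshold 0.05; standard errors and 95% intervals use the fit's weights and quasi-dispersion. Recovery of known changes was tested on simulated data. Their spread was set and not estimated from these libraries, so this does not show how often such changes would be called here. Same-number libraries of different treatments correlated in their deviations from group means (r from 0.264 to 0.832 over 12 pairs in microglia, 0.418 to 0.609 over 9 in cord; different-number libraries gave -0.579 to 0.311 over 36 and -0.509 to -0.0259 over 18), so the number was the block of the paired model; the pairing comes from the data. For microglia against cord the block was the number over both tissues, and for differences between tissues the number within each tissue. None of the 27 pairs of libraries within a group agreed within sampling noise (chi-square per degree of freedom at least 8.35).

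The named genes are all 6 members and the 2 other genes closest to their mean. Members and lists were chosen with earlier results of these data known. Alternatives were DESeq2 1.42.0, RLE and upper quartile factors, other filters, the block, and leaving out libraries or numbers; the block with RLE factors, the sums of squares and the ratios between numbers were added after seeing the data.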

Additional observations from a re-analysis of the deposited data

Results flagged for a closer look

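In each gene and treatment of the microglia, the highest and lowest of the 4 libraries were set against the rest by the ratio of the gap to the range. Of these 18 combinations, 2 had a library that stood far off, by a limit that independent, normally distributed values pass in about 1 of 20. The genes come from the same libraries, so this rate need not hold here. Cxcl10 in PBS replicate 1 was at 92.2 CPM against 12.6 to 13.4 CPM in the other PBS libraries, and number 1 was also the highest in NEO and VANCO. Isg15 in NEO replicate 3 was at 15.0 CPM against 5.18 to 6.08 CPM in the other neomycin libraries, and number 3 was also the highest in PBS and VANCO. What the numbers stand for is not given in the labels, and their part in these values was not tested.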

How the results depend on the processing

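Counts of the 6 genes called higher after neomycin depended on the model. Against PBS in microglia the count was 0 in the unpaired edgeR model, 1 with upper quartile factors, 3 with DESeq2 and 3 without a filter on low counts. With the replicate block it was 4, with RLE factors added to the block 4, and with the block in DESeq2 5. Of all genes, these settings called 4, 10, 52, 9, 67, 67 and 168 higher, in that order. The genes tested numbered 12570, or 23915 without the filter. Against PBS in cord the count of the 6 was 0 unpaired, 4 with DESeq2, 3 without the filter, and 5 with the replicate block in edgeR, with RLE factors or in DESeq2. Of all 14677 genes tested (22327 without the filter), 0, 26, 15, 76, 81 and 54 were called higher, in that order. For neomycin against vancomycin in microglia the count was 0 unpaired, 3 with DESeq2, and with the replicate block 3, 3 with RLE factors and 4 in DESeq2. These settings called 0, 15, 20, 20 and 59 of 12570 genes higher. For neomycin against vancomycin in cord the count was 0 unpaired, 1 with upper quartile factors, 4 with DESeq2 and 2 without the filter. With the replicate block it was 6, 6 with RLE factors and 4 in DESeq2. Of all genes, 0, 1, 24, 12, 57, 59 and 39 were called higher, in that order. The difference of the neomycin effect between tissues had 0 calls among the 6, and 2 with the replicate block in DESeq2, which called 172 of 15546 genes. The cause was not tested. The replicate block changed no call of the 6 for vancomycin. For microglia against cord it gave 4 calls in place of 3, where it called 13359 in place of 13065 of 15546 genes.

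With 1 library left out, the unpaired counts stayed at 0 for neomycin against PBS in either tissue and against vancomycin in microglia, and were 0 to 1 against vancomycin in cord. With the replicate block they were 3 to 4 and 3 to 5 against PBS in microglia and cord, 1 to 4 and 4 to 6 against vancomycin, 2 to 4 for microglia against cord and 0 to 1 for the neomycin difference between tissues. With all libraries of 1 number left out they were 0 to 5, 3 to 5, 0 to 3 and 4 to 6 in the same order, 3 to 4 for the tissues and 0 for the difference. The count over all genes moved too. For the 4 neomycin comparisons, in the same order, the block called 23 to 143, 47 to 104, 1 to 54 and 36 to 63 genes higher without 1 library. Without 1 number it called 0 to 115, 46 to 204, 0 to 44 and 41 to 105. The unpaired model called 0 to 12, 0 to 1, 0 and 0 to 3 genes higher without 1 library. For microglia against cord the block called 12969 to 13453 genes without 1 library and 12143 to 13120 without 1 number. For the neomycin difference between tissues it called 10 to 162 and 0 to 117 genes. For vancomycin against PBS 0 of the 6 were called in all of these fits. Of all genes, the block called 0 to 36 in microglia and 0 to 4 in cord without 1 library. Without 1 number it called 0 in microglia and 3 to 5 in cord.

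Single values near 0 changed sign: Isg15 for vancomycin in cord (0.0011 with RLE factors and 0.00047 in DESeq2), Rsad2 for microglia against cord (0.071 with the replicate block), and the neomycin difference between tissues for Mx1 (-0.0080 without the filter, -0.021 with the block) and Ifit3 (-0.12 with the block, -0.050 in DESeq2 with the block, -0.088 with RLE factors and the block). With 1 library or number left out, unpaired or paired, sign changes were also met in these ranges of the log2 fold change. For Cxcl10 they were -0.28 to 1.60 (neomycin against PBS, microglia), -0.42 to 1.09 (neomycin against vancomycin, microglia), -0.81 to 1.45 (vancomycin against PBS, microglia), -1.07 to 0.78 (neomycin difference between tissues) and -0.19 to 2.04 (vancomycin difference). For Ifit3 they were -0.093 to 0.59 (vancomycin, cord) and -0.72 to 0.71 (neomycin difference), and for Isg15 -0.13 to 0.12 (vancomycin, cord), -0.21 to 0.49 (neomycin difference) and -0.0033 to 0.36 (vancomycin difference). For Mx1 they were -0.096 to 0.20 (vancomycin, microglia), -0.18 to 0.18 (vancomycin, cord), -0.15 to 0.12 (neomycin difference) and -0.11 to 0.24 (vancomycin difference), and for Mx2 -0.18 to 0.13 (vancomycin, microglia) and -0.058 to 0.23 (vancomycin difference). For Rsad2 they were -0.33 to 0.30 (vancomycin, cord) and -0.46 to 0.41 (microglia against cord). The other members' log2 fold changes kept their sign. Cxcl10 in cord, at 12 to 51 counts a library, is the value most limited by depth.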
